A study of Homo sapiens with 6 samples.

Results

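The 6 genes described here are TXNIP, its arrestin-domain relatives ARRDC1, ARRDC2, ARRDC3 and ARRDC4, and MLXIP, taken by symbol from the 23368 gene symbols counted in each library. The genes were selected on their measured counts in treated against not treated cells, so their fold changes are given as a description and without p-values. NB4, an established human cell line with the PML/RARA fusion, was derived from acute promyelocytic leukemia, and maltonis is a synthetic hydroxypyrone made from maltol. Cells were either not treated (n.t.) or exposed to maltonis at 10 µM over 24 h, and each condition has 3 libraries that the study describes as biological replicates. No vehicle treatment of the n.t. cells is described, and both groups come from 1 cell line at 1 dose and 1 time.

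TXNIP binds thioredoxin and blocks its reducing activity, and it also promotes the removal of glucose transporters from the cell surface. TXNIP and these 4 ARRDC proteins are alpha-arrestins, adaptors with an arrestin fold whose PPxY motifs recruit NEDD4-type ubiquitin ligases to membrane cargo. MLXIP encodes MondoA, a transcription factor that pairs with MLX, enters the nucleus when glucose 6-phosphate accumulates and binds carbohydrate response elements, of which those of TXNIP and ARRDC4 are the textbook examples.

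The promoters of TXNIP and ARRDC4 are shown because these genes carry the textbook response to MondoA. Both are the 250 bases before a RefSeq transcription start in build GRCh38.p14, written 5′ to 3′ along the gene. Capitals mark matches on either strand to short motifs, which were chosen after these sequences had been read. They are the carbohydrate response element (2 copies of CACGNG with 5 bases between them) and the E-box (CACGTG). The others are the CCAAT box (CCAAT, which reads ATTGG on the other strand), the forkhead motif (GTAAACA) and the AP-1 motif (TGA and TCA with 1 base between them). None of the marked matches overlap.
TXNIP, chr1:145996580-145996829, minus strand: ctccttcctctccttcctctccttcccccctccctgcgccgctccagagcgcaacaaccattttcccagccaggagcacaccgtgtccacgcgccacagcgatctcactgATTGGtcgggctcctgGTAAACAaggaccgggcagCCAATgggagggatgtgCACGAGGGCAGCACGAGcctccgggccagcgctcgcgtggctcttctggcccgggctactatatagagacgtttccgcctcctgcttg
ARRDC4, chr15:97960453-97960702, plus strand: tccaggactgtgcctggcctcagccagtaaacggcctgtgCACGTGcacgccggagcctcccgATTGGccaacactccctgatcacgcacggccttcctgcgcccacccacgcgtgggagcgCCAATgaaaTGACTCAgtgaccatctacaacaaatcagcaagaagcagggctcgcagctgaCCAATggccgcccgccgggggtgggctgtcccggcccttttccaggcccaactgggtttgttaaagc

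The TXNIP window held the 17-base run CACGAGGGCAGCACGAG between 88 and 72 bases before the start, which is both copies of the element and the 5 bases between them. This spelling was found in 16 of 35114 RefSeq windows of 250 bases (0.0456%). A CCAAT box lay on each side of the forkhead match GTAAACA of TXNIP, between 140 and 101 bases before the start. In ARRDC4, the E-box lay between 210 and 205 bases before the start, and 3 CCAAT boxes and an AP-1 match followed it. The element in the spelling searched was absent from the ARRDC4 window, which says only that these letters do not occur there. Of the 35114 windows, 6.35% held the E-box, 32% a CCAAT box, 2.98% the forkhead letters and 6.57% the AP-1 letters.

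The other genes had fewer matches, and the second start of TXNIP had none. ARRDC3 held the forkhead letters on the minus strand between 29 and 23 bases before its second start and a CCAAT box before its first. In the GENCODE 29 annotation, ARRDC3 exons covered 54 bases of the window before its second start and 42 of that before its first. Which bases these are was not recorded. Most windows of the other genes also held some exon bases of their own gene, up to 34 in MLXIP. ARRDC2 had an AP-1 match and the antioxidant response letters TGACNNNGC before its first start, the latter found in 10.9% of windows, and a CCAAT box before its second. ARRDC1 and MLXIP had 1 CCAAT box each. The interferon response letters, GAAA repeated after 2 bases and held by 3.02% of windows, were in none of the 9 windows of the 6 genes. The map of motif matches shows these positions for every start.

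**Figure D1:**
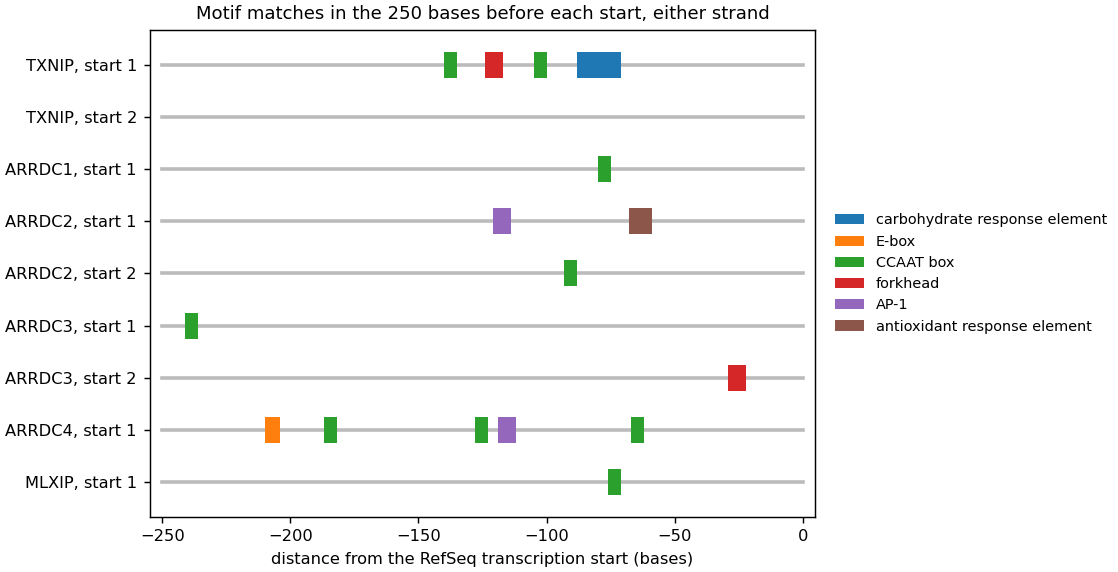
Motif matches (coloured boxes, either strand) in the 250 bases before each RefSeq start of the 6 genes, with the distance from the start in bases on the horizontal axis. The carbohydrate response element stands only before the first TXNIP start, at 88 to 72 bases, and ARRDC4 has the only E-box, at 210 to 205 bases.

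The 6 libraries held between 18492154 and 38205483 counts, so that 3 counts, taken as the floor, equal 0.0785 to 0.162 CPM (counts scaled to library size), where only counting error is covered. Across the 13209 genes tested with edgeR's quasi-likelihood test, 64% passed a false discovery rate (FDR) of 0.01, with 31.9% higher and 32.1% lower after maltonis, and in 76.6% the ranges of the 2 groups did not overlap, 38.8% with maltonis higher. All 7 promyelocyte markers examined had counts, and MPO, the peroxidase of promyelocyte granules, stood at 12900 to 15500 CPM in n.t. and 7300 to 7550 CPM in maltonis-treated cells. ELANE, another granule gene, was near the floor in n.t. cells at 0.0603 to 0.166 CPM and at 14.5 to 21 CPM in treated cells. AZU1, PRTN3, CTSG and CSF3R were also higher in treated cells without overlap, for example CTSG at 103 to 113 and 539 to 576 CPM, and MPO and CD33 were lower. The summed level of the 7 markers, most of it MPO, was 13700 to 16200 CPM in n.t. and 8620 to 9080 CPM in treated cells. Of 6 markers of lymphoid, erythroid and epithelial cells, MS4A1 and HBB had no count and EPCAM was the highest, at 16 to 17.6 CPM in n.t. and 10.2 to 12.8 CPM in treated cells. Their summed level was 18.1 to 20.6 CPM and 11.1 to 13.8 CPM. The part of either marker list in the results was not tested. CPM values are shares of a library, and in bulk RNA a change in the number of cells of a state and a change in RNA per cell cannot be told apart.

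Of the 6 genes, 4 passed the FDR of 0.01 on the higher side (TXNIP, ARRDC2, ARRDC3 and ARRDC4), against 31.9% of all tested genes, and ARRDC1 and MLXIP did not pass. Since the contrast was in view when the genes were picked, nothing is read from this count. TXNIP, ARRDC3 and ARRDC4 also had a log2 fold change over 1, as had 14.4% of tested genes on the higher side. In the same 4 genes the groups did not overlap, with maltonis higher, as in 38.8% of tested genes. The plot of CPM by library shows each value.

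**Figure D2:**
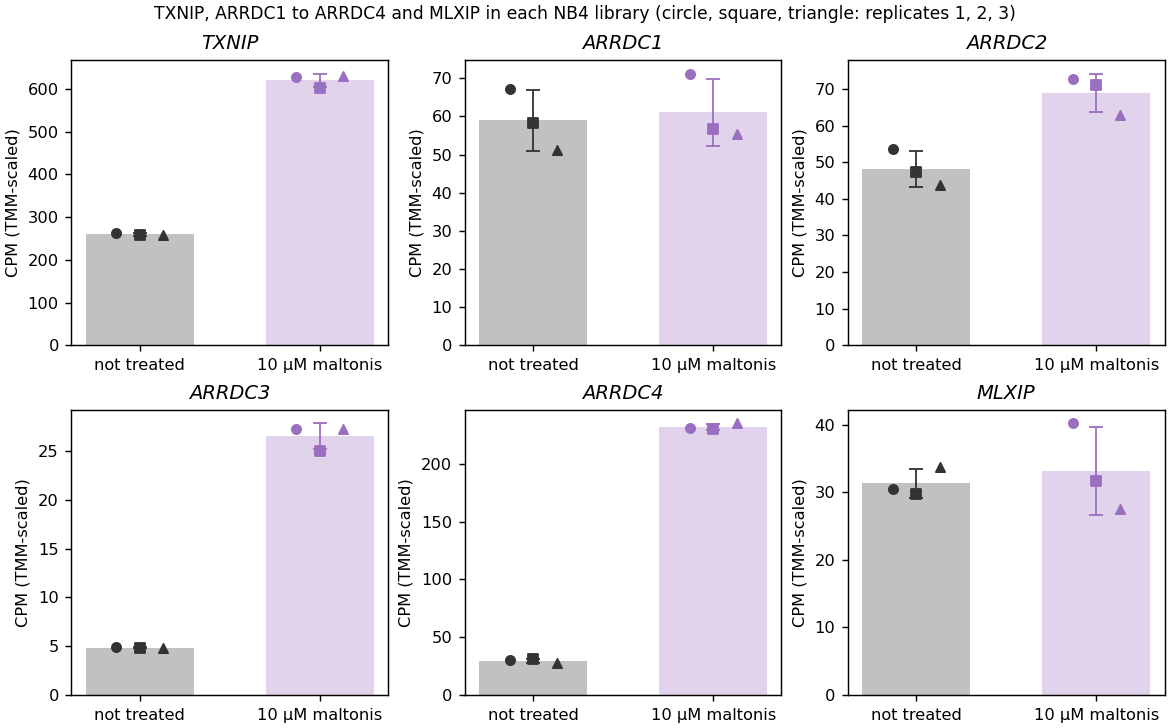
TMM-scaled CPM of each gene (vertical axes, starting at 0) in not treated and 10 µM maltonis-treated NB4 cells. Points are libraries, bars are means and error bars are SD (n = 3). The groups are apart for TXNIP, ARRDC2, ARRDC3 and ARRDC4 and overlap for ARRDC1 and MLXIP.

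TXNIP stood at 263, 258 and 257 CPM in n.t. replicates 1, 2 and 3 and at 628, 603 and 630 CPM after maltonis. The lowest treated library was above the highest n.t. library by more than the whole spread of either group. Means were 259 ± 3.18 and 621 ± 15 CPM (SD, n = 3), a 2.4-fold difference (log2 fold change 1.26, standard error 0.0524). TXNIP also gained the most reads of the 6 genes, 362 CPM, and 10.8% of all tested genes had a larger log2 fold change.

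ARRDC4, a glucose-induced relative of TXNIP, had the largest fold change of the 6 genes. The n.t. libraries read 29.8, 30.7 and 27.2 CPM, and the maltonis libraries 231, 230 and 235 CPM. The treated libraries differed among themselves by less than the treated TXNIP libraries did, with a coefficient of variation of 1.09% against 2.42%. ARRDC4 went from 29.2 ± 1.8 to 232 ± 2.54 CPM (SD, n = 3), a 7.94-fold difference (log2 fold change 2.99, standard error 0.0662). It ranked 268 from the top among the 13209 tested genes.

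ARRDC3 is an adaptor for NEDD4-type ligases that acts on the traffic of membrane receptors. Its n.t. libraries were at 4.95, 4.8 and 4.83 CPM, from 93, 174 and 160 counts, the fewest of the 6 genes. In maltonis-treated cells it stood at 27.3, 25 and 27.3 CPM from 528, 838 and 769 counts, well clear of the n.t. libraries. The means of 4.86 ± 0.0815 and 26.5 ± 1.32 CPM (SD, n = 3) differed 5.46-fold (log2 fold change 2.45, standard error 0.0856), at rank 430 from the top.

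ARRDC2, a less studied member of the family, differed by a smaller amount. Its libraries were at 53.6, 47.2 and 43.8 CPM in n.t. cells and 72.8, 71 and 63 CPM in treated cells. The groups did not overlap, but the gap between the highest n.t. and the lowest treated library was smaller than the range within n.t. cells. From 48.2 ± 5 to 68.9 ± 5.19 CPM (SD, n = 3), the log2 fold change was 0.52 (standard error 0.0921).

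ARRDC1 recruits the ESCRT protein TSG101 to the plasma membrane, where vesicles bud. It showed 67.3, 58.4 and 51.2 CPM in n.t. cells and 71.2, 56.8 and 55.3 CPM after maltonis, and the groups overlapped. Replicate 1 was the highest library in both groups, as it was for ARRDC2. The log2 fold change was 0.05 (standard error 0.125), from 59 ± 8.08 to 61.1 ± 8.74 CPM (SD, n = 3).

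MLXIP, the gene of MondoA, was at 30.5, 29.7 and 33.7 CPM in n.t. cells and at 40.2, 31.6 and 27.5 CPM in treated cells. The treated libraries spread over both sides of the n.t. range, and their coefficient of variation was 19.6%, the highest of the 6 genes. The means were 31.3 ± 2.1 and 33.1 ± 6.49 CPM (SD, n = 3), with a log2 fold change of 0.07 (standard error 0.132).

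File naming by the submitters carries a code of unstated meaning that sets replicate 1 of both groups (code A) apart from replicates 2 and 3 (code B). Within code A and within code B, the log2 differences were 1.26 and 1.26 for TXNIP, 2.95 and 3.01 for ARRDC4, 2.44 and 2.42 for ARRDC3, and 0.44 and 0.56 for ARRDC2. Those of ARRDC1 were 0.08 and 0.04. MLXIP had opposite signs, 0.40 within code A, which has 1 library per group, and −0.10 within code B.

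Per exon length, the order of the 6 genes differed between the groups. Levels were computed as RPKM (CPM per kilobase of all annotated exons). In n.t. cells, TXNIP led at 71.5 ± 0.876 RPKM (SD, n = 3), followed by ARRDC1 at 15.4 ± 2.11, ARRDC2 at 10.4 ± 1.08, ARRDC4 at 7.18 ± 0.443, MLXIP at 2.25 ± 0.151 and ARRDC3 at 0.985 ± 0.0165 RPKM. No neighbours in this order overlapped in their library ranges. In maltonis-treated cells the order was TXNIP at 171 ± 4.14, ARRDC4 at 57 ± 0.624, ARRDC1 at 16 ± 2.29, ARRDC2 at 14.9 ± 1.12, ARRDC3 at 5.37 ± 0.268 and MLXIP at 2.38 ± 0.467 RPKM (SD, n = 3). ARRDC1, at 14.5 to 18.6 RPKM, and ARRDC2, at 13.6 to 15.7 RPKM, overlapped there. ARRDC4 thus took rank 4 without and rank 2 with maltonis, and ARRDC3 and MLXIP exchanged the last places. With the length of 1 transcript in place of all exons, the order was the same in both groups, but ARRDC1 was at 37.2 and 38.5 RPKM and the ranges of ARRDC1 and ARRDC2 in treated cells no longer overlapped.

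**Figure D3:**
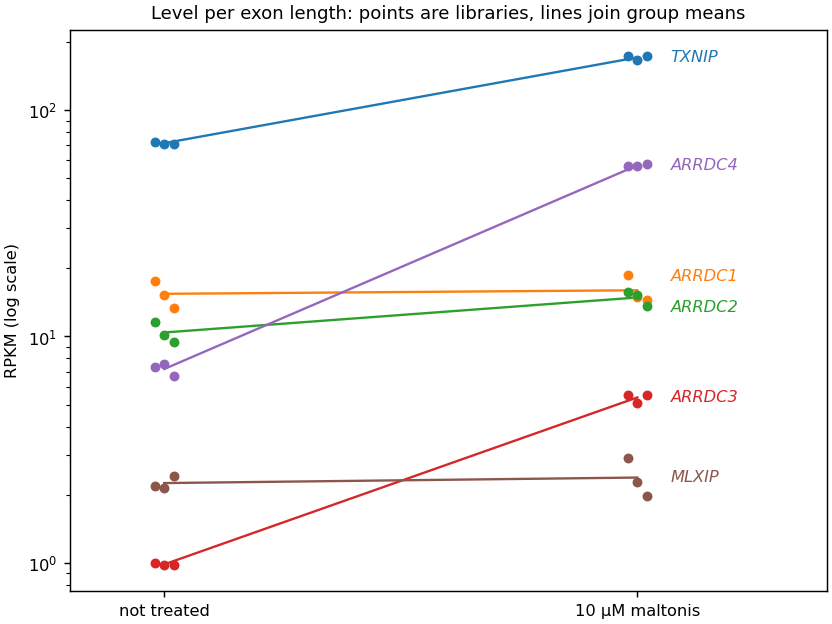
RPKM of the 6 genes on a log axis in not treated and maltonis-treated NB4 cells, with 1 point per library and lines between group means. ARRDC4 passes from 7.18 to 57 RPKM and crosses ARRDC1 and ARRDC2, and ARRDC3 passes from 0.985 to 5.37 RPKM and crosses MLXIP.

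The 5 arrestin-domain genes together took 418, 399 and 384 CPM in n.t. replicates 1, 2 and 3 and 1030, 986 and 1010 CPM after maltonis. TXNIP made up 62.8 to 66.9% of these reads in n.t. and 60.9 to 62.3% in treated cells. The share of ARRDC4 was 7.09 to 7.71% in n.t. libraries and 22.4 to 23.4% in treated libraries. On the RPKM scale, the level of TXNIP was 9.42 to 10.6 times that of ARRDC4 in n.t. libraries and 2.94 to 3.05 times in treated ones. ARRDC4 was 6.84 to 7.75 times the level of ARRDC3 without and 10.3 to 11.2 times with maltonis.

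**Figure D4:**
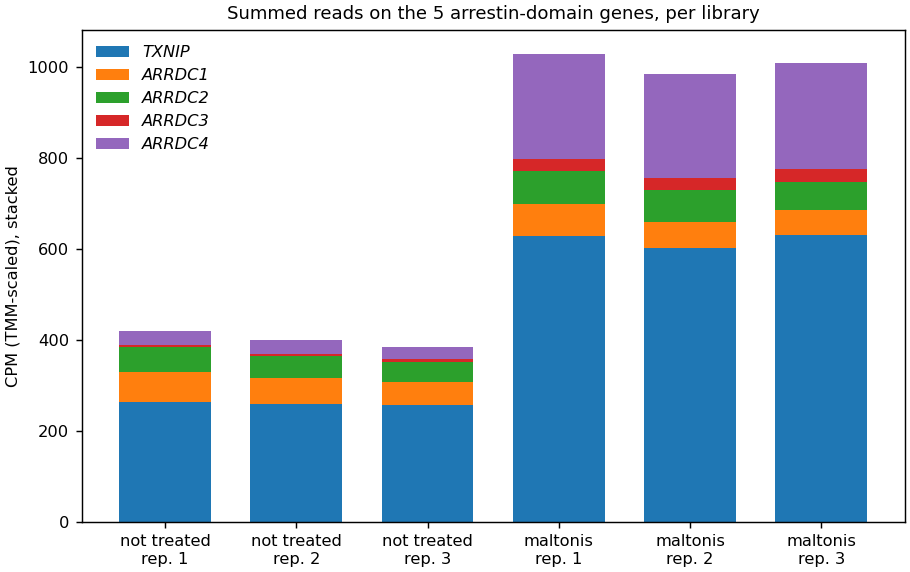
Stacked TMM-scaled CPM of the 5 arrestin-domain genes in each of the 6 libraries, from 0. Not treated libraries reach 384 to 418 CPM and maltonis-treated libraries 986 to 1030 CPM, and the ARRDC4 segment fills 7.09 to 7.71% and 22.4 to 23.4% of the bars.

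Reads that could belong to another gene were few by sequence. None of the 50-base stretches of the RefSeq-linked transcripts of TXNIP, ARRDC3 and ARRDC4 occurred in a transcript of another GENCODE gene. The shared part was 5.53% for ARRDC1, 3.77% for ARRDC2 and 0.239% for MLXIP. By position, overlapping GENCODE genes shared 4.79% (AL590627.2, same strand) and 0.759% (ARRDC1-AS1, opposite strand) of the ARRDC1 exons, 9.53% of those of ARRDC2 (AC020904.3) and 2.94% of those of ARRDC3 (ARRDC3-AS1), both on the opposite strand. None of these 4 genes is listed in the tables, and whether counting used the strand is not stated.

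The genes with the most similar pattern were sought among 11920 other genes with a mean of at least 1 CPM, by the root mean square difference of log2 CPM, centred on each gene's mean, over the 6 libraries. MOCS2 (0.0198) and ZNF323 (0.0376) came closest to TXNIP, BTN2A3P (0.0497) and LPAR4 (0.0764) to ARRDC4, and BTN2A2 (0.04) and THAP9 (0.0503) to ARRDC3. FAM73B (0.0165) and IRF3 (0.0281) were closest to ARRDC2, COL4A2 (0.0279) and CENPB (0.0306) to ARRDC1, and PRRC2A (0.0449) and WAS (0.0586) to MLXIP. Among the 6 genes, ARRDC1 and MLXIP (0.169), ARRDC1 and ARRDC2 (0.249) and ARRDC2 and MLXIP (0.282) were the closest pairs. ARRDC3 and ARRDC4 (0.286) came next, and TXNIP was nearer to ARRDC2 (0.386) than to ARRDC4 (0.866). The 6 libraries share 2 conditions, so these values mostly describe the size of the difference between them.

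Genes that act with the 6 were taken from 11 lists of 96 genes, of which 81 could be tested. Of these 81, 19 were higher and 29 lower at an FDR of 0.01, beside 31.9% and 32.1% of all tested genes, with a median log2 fold change of −0.11 against 0.01 over all genes. All adjusted p-values given for them are those of the edgeR test, adjusted over all tested genes by the Benjamini-Hochberg method. The plot of log2 fold changes shows each list beside the 6 genes.

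**Figure D5:**
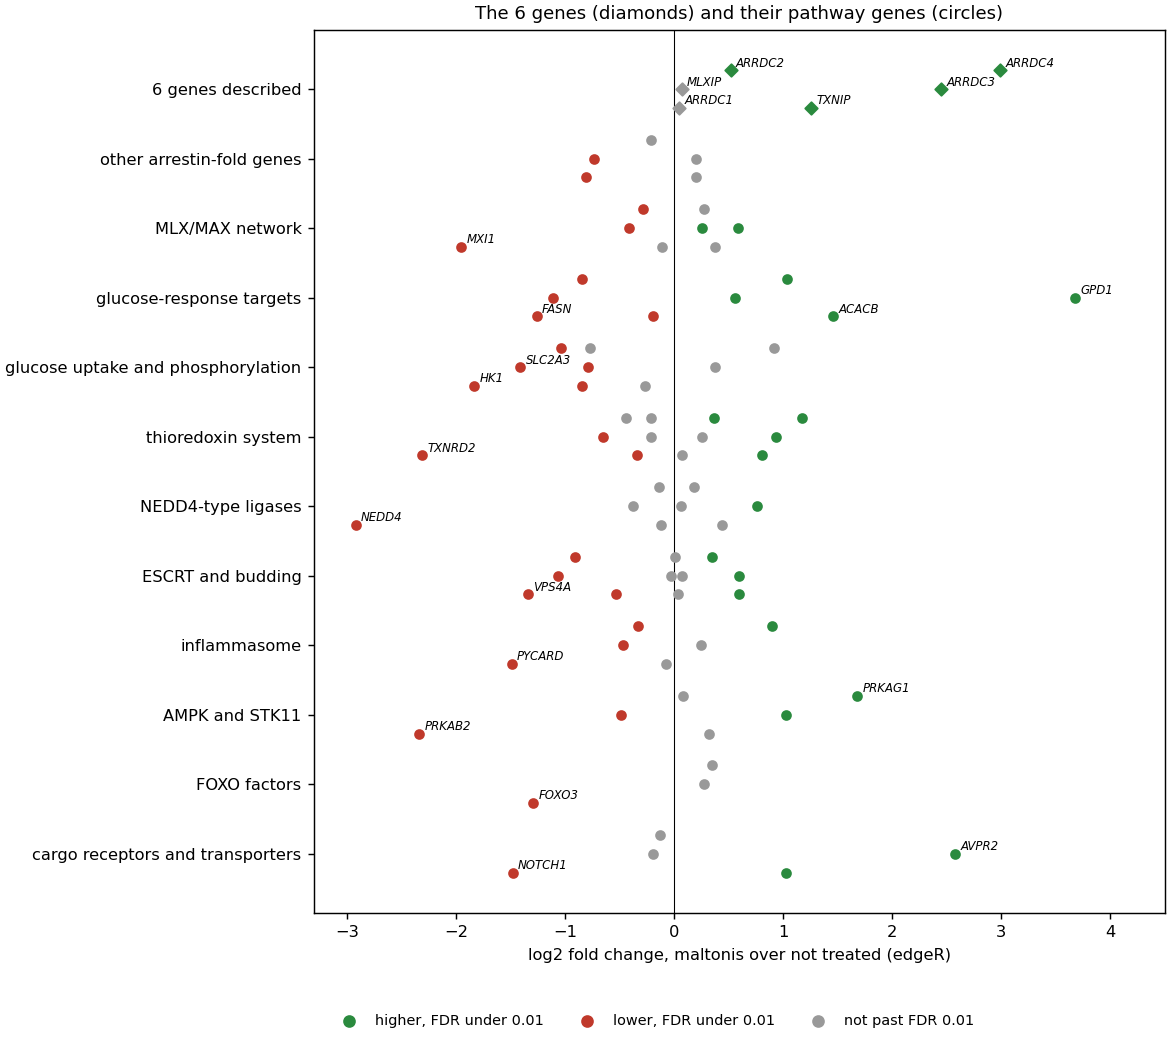
Log2 fold change (maltonis over not treated) of the 6 genes (diamonds) and of the tested genes of 11 pathway lists (circles), coloured by the call at an FDR of 0.01, with names for the larger values. Glucose uptake and phosphorylation has 5 lower genes of 9, and the glucose-response list has 4 higher and 4 lower of 8.

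Of 5 tested genes with an arrestin-type fold outside the alpha-arrestins, 2 fell and 3 did not pass. ARRB1 and ARRB2, the beta-arrestins that bind activated G protein-coupled receptors, fell from 200 ± 10.5 to 121 ± 1.18 CPM and from 103 ± 7.65 to 58.9 ± 6.57 CPM (SD, n = 3), with log2 fold changes of −0.73 and −0.81 (edgeR adjusted p = 5.85e-06 and 5.54e-05). VPS26A, VPS26B and DSCR3, whose proteins share the fold and belong to retromer-type complexes, did not pass, at log2 fold changes of 0.20, −0.21 and 0.20. Without n.t. replicate 1, VPS26B and DSCR3 passed, at −0.27 and 0.25. ARRDC5, the remaining alpha-arrestin gene, had no count in n.t. cells and 2, 1 and 1 counts in treated cells, and was too low to test, as were the visual arrestins SAG and ARR3.

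Other genes of the MLX and MAX network, to which MondoA belongs, were mixed, with 2 of 8 tested genes higher and 3 lower. MLX, the dimer partner, was at 46.9, 72.7 and 72.6 CPM in n.t. cells and 76.4, 78.8 and 79.5 CPM after maltonis, a log2 fold change of 0.28 that did not pass (edgeR adjusted p = 0.117). N.t. replicate 1 was the low library, and without it the log2 fold change was 0.10. MLXIPL, which encodes the related glucose sensor ChREBP, had no count in n.t. cells, where the floor lies at 0.0785 to 0.155 CPM, and 4, 6 and 5 counts in treated cells, and was not tested. MXI1, a repressor that pairs with MAX, fell from 61.5 ± 2.79 to 15.9 ± 0.986 CPM (SD, n = 3), and its log2 fold change was −1.95 (edgeR adjusted p = 1.3e-07). MAX and MGA were also lower, at −0.41 and −0.28 (edgeR adjusted p = 0.000226 and 0.00254). The higher genes were MXD4 and MXD1, at 0.59 and 0.26 (edgeR adjusted p = 9.32e-05 and 0.0068).

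Beside TXNIP and ARRDC4, other genes known to answer MondoA or ChREBP went both ways, with 4 of 8 tested higher and 4 lower. KLF10, a zinc finger repressor, rose from 43.1, 42.3 and 41.3 CPM to 89.2, 85.3 and 86.3 CPM, a log2 fold change of 1.04 (edgeR adjusted p = 7.24e-07). PFKFB3, which makes the activator of phosphofructokinase, rose from 61 ± 7.5 to 90.2 ± 2.37 CPM (SD, n = 3), by 0.56 in log2 (edgeR adjusted p = 0.000464). ACACB, the mitochondrial acetyl-CoA carboxylase, rose from 22.8 ± 1.53 to 62.7 ± 3.64 CPM (SD, n = 3), by 1.46 in log2 (edgeR adjusted p = 6.15e-07). GPD1 passed with 4, 0 and 2 counts in n.t. and 14, 37 and 25 counts in treated cells, but its log2 fold change of 3.68 is uncertain at these counts and was 2.94 without n.t. replicate 2 and 4.81 without n.t. replicate 1.

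The 4 lower genes of this list include enzymes of fatty acid synthesis. FASN, the fatty acid synthase, went from 1040 ± 116 to 436 ± 43.8 CPM (SD, n = 3), a log2 difference of −1.26 (edgeR adjusted p = 5.92e-06), and ACACA, the cytosolic acetyl-CoA carboxylase, had a log2 fold change of −0.84 (edgeR adjusted p = 2.61e-05). RGS16, a regulator of G protein signaling, fell by 1.11 on the log2 scale (edgeR adjusted p = 8.01e-07). ACLY, at −0.19, passed narrowly (edgeR adjusted p = 0.0091) and was lost without n.t. replicate 2 or 3 and without maltonis replicate 2 or 3, at −0.21 to −0.19, under total count and upper quartile scaling, at −0.07 and −0.10, and with the replicate block, the likelihood ratio test or no filter, at −0.19.

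Glucose uptake and phosphorylation genes, the proteins TXNIP acts on and the step that makes the signal for MondoA, had 5 of 9 tested members lower, and the other 4 did not pass. SLC2A3, which encodes the transporter GLUT3, stood at 93.9, 96.1 and 95.3 CPM in n.t. and 34.5, 36.4 and 36.5 CPM in treated cells, a log2 fold change of −1.41 (edgeR adjusted p = 1.69e-07). SLC2A1, which encodes GLUT1, went from 129, 147 and 142 CPM to 77.1, 80.4 and 83.6 CPM, by −0.79 in log2 (edgeR adjusted p = 9.21e-06). The groups lay apart for both transporters.

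The hexokinases HK1 and HK2 had log2 fold changes of −1.83 and −1.04 (edgeR adjusted p = 0.000221 and 0.00022). N.t. replicate 1 was the lowest n.t. library for both, at 23.2 against 48.7 and 47.2 CPM for HK1 and at 203 against 268 and 299 CPM for HK2. SLC2A6, a transporter of lysosomal membranes, fell by 0.84 in log2 (edgeR adjusted p = 0.00013).

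In the thioredoxin system, 4 of 12 genes were higher and 3 lower. TXN, the protein that TXNIP inhibits, fell from 143, 186 and 170 CPM to 88.5, 113 and 116 CPM, a log2 fold change of −0.65 (edgeR adjusted p = 0.00133). TXNRD1, its cytosolic reductase, rose from 558, 542 and 538 CPM to 680, 715 and 718 CPM, a log2 fold change of 0.37 (edgeR adjusted p = 0.00025). TXNRD2, the mitochondrial reductase, fell from 38 ± 3.26 to 7.65 ± 0.578 CPM (SD, n = 3), and its log2 fold change was −2.31 (edgeR adjusted p = 1.93e-07). Of the peroxidases that thioredoxin recharges, PRDX2 and PRDX5 rose by 1.17 and 0.94 in log2 (edgeR adjusted p = 2.74e-06 and 1.57e-06). PRDX4 was lower, with a log2 fold change of −0.34 (edgeR adjusted p = 0.00168). The other peroxiredoxins listed, PRDX1, PRDX3 and PRDX6, did not pass, at 0.07, −0.21 and −0.21. SRXN1, which repairs overoxidized peroxiredoxins, rose by 0.81 (edgeR adjusted p = 2.01e-06).

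Of the NEDD4-type ligases that alpha-arrestins recruit, 1 of 8 tested genes rose, 1 fell and 6 did not pass. ITCH, which ubiquitinates TXNIP, was at 167 ± 2.18 and 151 ± 6.27 CPM (SD, n = 3) and did not pass (log2 fold change −0.14, edgeR adjusted p = 0.0423). WWP2, another ligase of the family, rose by 0.76 in log2 (edgeR adjusted p = 7.28e-06). NEDD4 was a minor transcript and fell from 51, 105 and 103 counts to 8, 13 and 10 counts, or from 2.91 ± 0.195 to 0.385 ± 0.0291 CPM (SD, n = 3, edgeR adjusted p = 1.5e-06).

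The ESCRT genes used in vesicle budding had 3 of 11 members higher and 4 lower, and their median log2 fold change was 0.01. TSG101, the partner of ARRDC1, was at 48.2 ± 2.56 and 61.7 ± 2.83 CPM (SD, n = 3, log2 fold change 0.35, edgeR adjusted p = 0.00149), and it was not past the threshold without maltonis replicate 2 or 3. VPS4A, an ATPase that takes ESCRT filaments apart, fell by 1.34 on the log2 scale and its paralog VPS4B rose by 0.60 (edgeR adjusted p = 1.47e-07 and 3.85e-05). HGS and STAM, which sort ubiquitinated cargo on endosomes, had log2 fold changes of −0.91 and −1.06 (edgeR adjusted p = 1.74e-05 and 1.43e-05). STAM was at 16.5 ± 1.36 and 7.92 ± 0.422 CPM (SD, n = 3). Its paralog STAM2 went the other way, from 45.4 ± 0.429 to 68.9 ± 5.86 CPM (SD, n = 3, log2 fold change 0.60, edgeR adjusted p = 9.24e-05).

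Of 5 genes of membrane proteins known as alpha-arrestin cargo, 2 were higher, 1 was lower and 2 did not pass. AVPR2, a vasopressin receptor, was among the higher genes and low in both groups, at 0.888 ± 0.0805 and 5.24 ± 0.382 CPM (SD, n = 3, edgeR adjusted p = 8.86e-07). NOTCH1 fell from 114 ± 14.2 to 40.9 ± 2.03 CPM (SD, n = 3, edgeR adjusted p = 1.74e-06). SLC11A2, the iron transporter DMT1 that ARRDC1 and ARRDC4 help to ubiquitinate, did not pass, with a log2 fold change of −0.13 (edgeR adjusted p = 0.119).

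Inflammasome genes, which include a partner described for TXNIP in NLRP3, had 1 of 6 tested members higher and 3 lower. NLRP3 fell from 73.1 ± 4.91 to 52.7 ± 1.05 CPM (SD, n = 3), or by −0.47 in log2 (edgeR adjusted p = 0.000236). PYCARD, its adaptor, fell by 1.49 in log2 (edgeR adjusted p = 4.65e-06). CASP1, the protease they activate, rose by 0.90 in log2 (edgeR adjusted p = 5.95e-06).

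AMPK is the kinase that marks TXNIP for degradation when energy is low. The list of AMPK subunits and STK11 had 2 of 6 tested genes higher and 2 lower. AMPK subunits moved in opposite directions, as PRKAB1 rose by 1.03 and PRKAG1 by 1.68, while PRKAB2 fell by 2.34 and PRKAA1 fell by 0.49 in log2 (edgeR adjusted p = 2.63e-06, 1.67e-07, 6.02e-07 and 0.000186). STK11 did not pass, at a log2 fold change of 0.32 (edgeR adjusted p = 0.0393). Of the FOXO factors, which bind the forkhead letters, FOXO3 fell from 49.2 ± 2.63 to 20.1 ± 0.878 CPM (SD, n = 3, edgeR adjusted p = 8.37e-07), and FOXO1 and FOXO4 did not pass, at log2 fold changes of 0.35 and 0.28.

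The 16 windows with the carbohydrate response element belonged to 16 genes, a set read from sequence after the TXNIP values were known. Of the 15 genes other than TXNIP, 12 were tested, and 6 were higher, 3 lower and 3 not past the threshold, beside 31.9% higher and 32.1% lower over all tested genes, with a median log2 fold change of 0.26 against 0.01 over all genes. The higher genes, by log2 fold change, were RCN3 at 1.91, MYL5 at 1.10, TIGD1 at 0.69, STX12 at 0.66, P4HA1 at 0.38 and KCTD5 at 0.37 (edgeR adjusted p from 9.06e-05 to 0.00412). RCN3 rested on 8, 30 and 24 counts in n.t. and 61, 76 and 73 counts in treated cells. MYL5 did not pass without maltonis replicate 2, at 0.98, and KCTD5 did not without n.t. replicate 2 or any 1 maltonis library, at 0.31 to 0.39. MTHFS, ATP5I and RAN were lower, at −1.10, −1.06 and −0.61 (edgeR adjusted p = 0.000244, 2.16e-06 and 0.000444). GFPT1, which opens the hexosamine pathway, did not pass, at 0.16 (edgeR adjusted p = 0.128).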

How the data were processed

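RNA of 6 NB4 libraries was sequenced from ribosomal RNA-depleted, stranded libraries. The authors deposited whole-number HTSeq counts per gene symbol, 1 table per library, without normalization. Submitters' processing notes name TopHat, Bowtie2, HTSeq and hg19; their versions, the annotation and the strand setting are not given in the sources used here. Counts were scaled by TMM, filtered with filterByExpr and tested with edgeR 4.0.16 in R 4.3.3 (quasi-likelihood test, no covariates, Benjamini-Hochberg adjustment over 13209 genes, FDR under 0.01). The p-values weigh the group difference against the variation between 3 libraries per group, which edgeR moderates across genes. The tables held no rows of totals or unassigned reads. Log2 CPM used a prior count of 2. On simulated counts of this comparison over 13069 genes, 90 of 100 changes of log2 size 1 and 100 of 100 of size 2 were recovered. Exon lengths are GENCODE 29 (GRCh38), found for 20195 symbols and 1463 synonyms. Promoters are RefSeq, with a window for all 6 genes. Replicate libraries differed by more than sampling noise (chi-square per degree of freedom 4.15 to 33.1) and all 6 were kept as separate samples.

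The 6 genes, the lists and the tests were chosen with earlier results of these data known. Named genes are the 6, the 2 nearest patterns of each, fixed partners, and up to 4 genes per list past the FDR with a log2 fold change beyond 1 in size; other called list genes, motifs, genes of the 16 element windows and neighbouring genes were chosen after the values of the 6 genes were seen. Alternatives covered scaling (DESeq2 1.42.0 size factors, total counts, upper quartile), test (DESeq2, likelihood ratio), count filter, replicate block, code, length and each library left out. A few genes are not reported here.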

Additional observations from a re-analysis of the deposited data

How the results depend on the processing

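Under all 16 alternatives, TXNIP, ARRDC2, ARRDC3 and ARRDC4 stayed the 4 genes past the FDR on the higher side, with log2 fold changes from 1.22 to 1.38, 0.45 to 0.64, 2.40 to 2.57 and 2.93 to 3.11. ARRDC1 (−0.09 to 0.17) and MLXIP (−0.11 to 0.19) took either sign. Total counts moved the median of all genes from 0.014 to 0.133 and upper quartile scaling to 0.101, and gave TXNIP 1.38 and 1.35, ARRDC3 2.57 and 2.54, and, for total counts, ARRDC4 3.11. Called list genes numbered 17 to 27 higher and 24 to 33 lower, while over all tested genes 3503 to 4902 were higher and 3652 to 4743 lower. Leaving out 1 library gave the lists 17 to 21 higher and 26 to 30 lower genes. A replicate block in the model gave 4602 genes higher and 4620 lower, and in the lists 23 and 31, with 4 of the 6 genes higher. Same-numbered libraries deviated together with correlations of 0.301, 0.085 and 0.161, and not every library matched its own number best, so the numbers were not taken as pairs. Across the groups, correlations were 0.085 to 0.161 within code B and −0.232 to −0.162 between the codes. The main fit left the code out. With the code as a factor, 4731 genes were higher and 4743 lower, and in the lists 27 and 33, with 4 of the 6 genes higher. Besides the losses given above, calls were lost for MXD1 without n.t. replicate 1 or 2 or any maltonis library (0.21 to 0.26), for VPS37B without n.t. replicate 1 or 2 or maltonis replicate 2 or 3 (−0.57 to −0.43) and for NEK7 without n.t. replicate 2 or 3 or maltonis replicate 2 (−0.38 to −0.32). Total counts and upper quartile scaling also ended the calls of VPS37B (−0.42 and −0.45), NEK7 (−0.21 and −0.24) and MGA (−0.17 and −0.20), total counts that of PRDX4 (−0.23), and testing without a filter that of MXD1 (0.25). ACLY was also lost without a filter, with the likelihood ratio test and with the replicate block, at −0.19 in each. Calls were gained by DSCR3 under total counts, upper quartile, the code as a factor, replicates 2 and 3 only and without n.t. replicate 1 (0.20 to 0.31). VPS26B gained one with DESeq2, the code, replicates 2 and 3 only and without n.t. replicate 1 (−0.29 to −0.21), VPS26A with the code (0.21), and GPI with the code, the replicate block, replicates 2 and 3 only and without n.t. replicate 1 (−0.40 to −0.26). Over the fits that leave out 1 library, log2 fold changes ran from −0.05 to 0.16 for COL4A2, −0.09 to 0.12 for CENPB, −0.14 to 0.13 for PRRC2A, −0.08 to 0.21 for WAS, −0.02 to 0.22 for EHMT1 and −0.12 to 0.10 for C4orf27, none of them past the threshold with all libraries. On replicates 2 and 3 only, PRRC2A (−0.14), WAS (−0.09) and C4orf27 (−0.01) also changed sign. The cause was not tested. MLXIPL and ARRDC5 are too low at this depth to test.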

Other observations

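The nearest protein-coding genes on either side of each of the 6 genes, by RefSeq order, were examined as genes chosen by position among those counted. Genes without a counted symbol, or overlapping the gene in question, were passed over. Of 12 such neighbours, 9 were tested, and 3 were higher, 5 lower and 1 not past an FDR of 0.01, where 31.9% of all tested genes were higher and 32.1% lower. POLR3GL, a subunit gene of RNA polymerase III beside TXNIP, rose from 20.3 to 34.9 CPM, a log2 fold change of 0.78 (standard error 0.0819, edgeR adjusted p = 3.17e-05), less than TXNIP at 1.26. HFE2, on the other side of TXNIP, had no count in n.t. and 5, 2 and 3 counts in treated cells. Both neighbours of ARRDC4 fell, the nuclear receptor gene NR2F2 with a log2 fold change of −0.97 and the growth factor receptor gene IGF1R with one of −1.38 (edgeR adjusted p = 1.82e-05 and 0.0003). NR2F1, beside ARRDC3, fell by 2.19 (edgeR adjusted p = 9.03e-05). IL12RB1, a cytokine receptor gene beside ARRDC2, had 0, 2 and 1 counts in n.t. and 36, 60 and 62 counts in treated cells. EHMT1, a histone methyltransferase gene beside ARRDC1, did not pass at 0.13 (edgeR adjusted p = 0.356), and ZMYND19, on its other side, fell by 0.68 (edgeR adjusted p = 5.58e-05). BCL7A and LRRC43, beside MLXIP, went in opposite directions, at −1.83 and 2.08 (edgeR adjusted p = 1.55e-06 and 0.000329), the latter from 3, 5 and 4 counts to 10, 20 and 18 counts.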
